A study of Mus musculus with 12 samples.

Results

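Tubulins are the building blocks of microtubules, and 10 tubulin gene rows (Tuba1a, Tuba1b, Tuba4a, Tubb2a, Tubb2b, Tubb3, Tubb4a, Tubb5, Tubb6 and Tubg1), listed by symbol, were taken from a total RNA table of 49489 gene rows. All 10 were found in the table, and all 10 were among the 20049 genes with enough counts to be tested. The RNA came from a pulldown aimed at Gas5, a long noncoding RNA, in primary hippocampal neurons prepared from mouse pups at postnatal day 0 and kept in culture until day 16 in vitro. The total RNA assay had 3 libraries called antisense and 3 called sense. The labels name no genotype, strain or drug, and they leave unstated which group was captured and which served as control. Whether replicates came from different cultures is not stated either, so p-values here measure only the spread between libraries, which may be technical. All signed differences below are antisense minus sense, save those quoted from the authors' deposited table.

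Microtubules are hollow polymers of a heterodimer of alpha- and beta-tubulin, and in neurons they give axons and dendrites their shape and carry long-range transport. Several genes encode nearly identical alpha- and beta-tubulins, called isotypes, which differ mostly in their C-terminal tails and in the cells that use them. Gamma-tubulin does not build the polymer wall but sits in a ring complex that starts new microtubules. Cells also adjust tubulin mRNA to the pool of free tubulin: when dimers are in excess, the ribosome-associated factor TTC5 recognises nascent tubulin and the mRNA is degraded.

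The libraries held 5774904 to 10424024 counts. Gas5 itself took a mean of 11.6% of the counts in antisense and 45.3% in sense (TMM-scaled log2 fold change -2.78, SE 0.286, edgeR adjusted p = 3.76e-06). Because a large Gas5 share lowers the share of every other gene, levels are given as CPM, counts scaled to a fixed library size, with TMM factors, from a trimmed mean that assumes most genes do not move. On that scale the median log2 fold change of all tested genes was -0.01, against 0.70 on library totals alone. Of the 20049 genes, 22.6% passed the test at a false discovery rate of 0.05, 18.2% as higher and 4.35% as lower in antisense. Among the 14788 tested protein-coding genes the shares were 9.37% higher and 4.80% lower.

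None of the 10 tubulin genes passed the test in either direction, against 22.6% of all tested genes. The 8 abundant alpha- and beta-tubulin genes had modestly lower mean levels in antisense, by 1.18-fold to 1.38-fold, and Tubb6 and Tubg1 had higher means there. The median log2 fold change over the 10 was -0.30, against -0.01 over all tested genes and -0.07 over protein-coding genes. At an unadjusted p under 0.05, 2 of the 10 (Tubb2a and Tubb4a) lay lower and 0 higher, where 10.6% of all tested genes lay lower and 22.2% higher; DESeq2 also called 0 of the 10. The sign for the 8 genes depends on the scaling: on library totals alone, which include Gas5, all 8 had positive log2 fold changes. There the median over the 10 was 0.46, against 0.70 over all tested genes. The median of the 10 lay below that of all tested genes on both scales. A change of scaling moves all genes of a library together, so the second scale adds no separate evidence. On library totals Tubb6 and Tubg1 passed as higher, on a scale where 63.9% of all genes did.

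Tuba1a encodes the main alpha-tubulin of growing neurons, and mutations in its human counterpart disturb cortical folding. It stood at 299, 312 and 209.5 CPM in antisense replicates 1, 2 and 3 and at 402, 243 and 329 CPM in sense replicates 1, 2 and 3. The groups overlapped, with antisense replicates 1 and 2 above sense replicate 2. The means were 273 ± 55.7 and 325 ± 79.4 CPM (SD, n = 3 each), a log2 fold change of -0.25 (95% interval -0.60 to 0.11; edgeR adjusted p = 0.333).

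Tuba1b, a broadly expressed alpha-tubulin, lies near Tuba1a on chromosome 15. Its levels were 63.5, 69.2 and 51.2 CPM in antisense and 99.8, 53.8 and 77.8 CPM in sense. Again sense replicate 1 was highest and sense replicate 2 fell inside the antisense range. The log2 fold change was -0.33 (95% interval -0.70 to 0.04; edgeR adjusted p = 0.208). Tuba1a spans 98949847 to 98953501 and Tuba1b 98931429 to 98934390 on chromosome 15 (GRCm38.p6). The estimated counts of both were fractional (not within 1e-09 of a whole number) in all 6 libraries. The same held for Tubb2a, Tubb2b, Tubb5, Tubb6 and Tubg1, so a fractional estimate does not by itself show where reads are shared. The coding sequences of Tuba1a and Tuba1b are close to identical, and reads may be split between them and Tuba1c. With the 3 rows summed before the fit, the log2 fold change was -0.27 (SE 0.161; edgeR adjusted p = 0.277).

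Tuba4a encodes an alpha-tubulin whose gene lacks the C-terminal tyrosine codon that most other alpha-tubulins carry. It was measured at 19.5, 18.8 and 12.6 CPM in antisense and 30.4, 15.1 and 24.8 CPM in sense. Only sense replicate 2 lay inside the antisense range. Its log2 fold change of -0.47 was the most negative of the 10, with a 95% interval of -0.94 to 0.01 (edgeR adjusted p = 0.158). The span of Tuba4a on chromosome 1 (75214972 to 75221261) overlaps the kinase gene Stk16, at a mean of 54.8 CPM, and counting by strand is not stated. Stk16 lay at -0.25 on the log2 scale (SE 0.104, edgeR adjusted p = 0.109). All its antisense libraries lay below all sense libraries, as for 13.2% of all tested genes. Of the 6 fits that left out a library, 1 brought it past the threshold (without antisense replicate 3, edgeR adjusted p = 0.0472). The highest adjusted p of those fits was 0.278. The share of the Tuba4a counts that came from Stk16 reads was not tested.

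Tubb2a and Tubb2b are neighbouring beta-tubulin genes on chromosome 13 (34074278 to 34078008 and 34127008 to 34130354), both abundant in brain. Tubb2a stood at 122, 128 and 84.4 CPM in antisense and 195, 115 and 139 CPM in sense. Antisense replicates 1 and 2 lay above sense replicate 2, so the groups overlapped. The log2 fold change was -0.43 (95% interval -0.80 to -0.05), with the smallest p of the 10 (unadjusted 0.0278; edgeR adjusted p = 0.0999). Tubb2b, mutated in human polymicrogyria, stood at 119.6, 134.5 and 93.5 CPM in antisense and 162, 114.5 and 133 CPM in sense. Antisense replicate 2 was second only to sense replicate 1, and the log2 fold change was -0.24 (95% interval -0.53 to 0.06; edgeR adjusted p = 0.265). Both had fractional estimates in all 6 libraries by the same 1e-09, and the 2 rows summed gave -0.33 (SE 0.156; edgeR adjusted p = 0.153).

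Tubb3, the class III beta-tubulin widely used as a marker of neurons, was at 21.8, 25.0 and 15.1 CPM in antisense and 39.8, 19.2 and 25.4 CPM in sense. Sense replicate 1 stood apart, and sense replicate 2 fell below antisense replicates 1 and 2. The mean over antisense libraries was 20.7 ± 5.05 CPM and over sense libraries 28.1 ± 10.6 CPM (SD, n = 3 each), a log2 fold change of -0.44 (95% interval -0.93 to 0.05; edgeR adjusted p = 0.198). Its estimate was whole, within the same 1e-09, in 4 of 6 libraries, the most of the 10 genes. Without sense replicate 1 the log2 fold change of Tubb3 was -0.12 (edgeR adjusted p = 0.767).

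Tubb4a encodes a brain beta-tubulin that is also used by myelinating oligodendrocytes. Its levels were 28.0, 30.2 and 22.0 CPM in antisense and 44.8, 26.5 and 33.2 CPM in sense, with sense replicate 2 inside the antisense range. The log2 fold change was -0.38 (95% interval -0.75 to -0.01; edgeR adjusted p = 0.138). Tubb5, a beta-tubulin of most cell types, was at 86.4, 83.1 and 55.3 CPM in antisense and 114, 71.2 and 87.4 CPM in sense. Sense replicate 3 was barely above antisense replicate 1, and the log2 fold change was -0.28 (95% interval -0.65 to 0.09; edgeR adjusted p = 0.285).

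Tubb6 and Tubg1 did not share this pattern. Tubb6, a beta-tubulin of low abundance in neurons, was at 4.996, 3.08 and 6.03 CPM in antisense and 4.59, 1.56 and 3.60 CPM in sense. These levels rest on 10 to 45 counts a library, and the groups overlapped. The log2 fold change was 0.53 with a wide 95% interval of -0.25 to 1.32 (edgeR adjusted p = 0.348). It was 0.19 without sense replicate 2, 0.31 without antisense replicate 3 and 0.86 without sense replicate 1. Tubg1, which encodes gamma-tubulin, was at 9.07, 8.35 and 9.65 CPM in antisense and 8.06, 8.10 and 7.37 CPM in sense. It was the 1 gene of the 10 whose groups did not overlap, with antisense above sense, a pattern seen in 23.4% of all tested genes. The gap was small, 9.02 ± 0.651 against 7.84 ± 0.415 CPM (SD, n = 3 each), a log2 fold change of 0.20 (95% interval -0.20 to 0.60; edgeR adjusted p = 0.503).

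**Figure D1:**
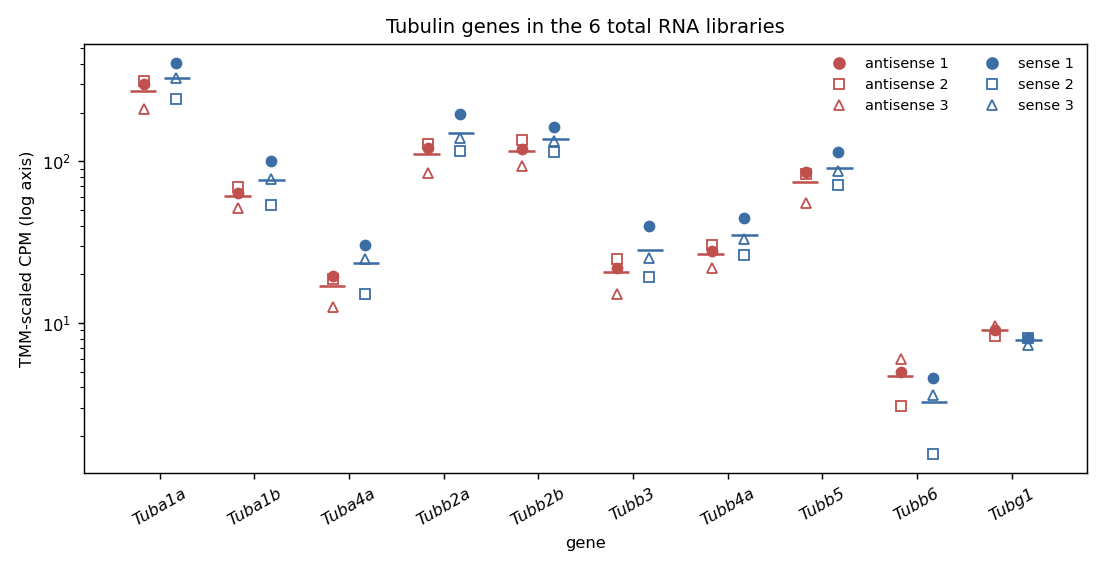
TMM-scaled CPM (log axis) of the 10 tubulin genes in each of the 3 antisense (red) and 3 sense (blue) total RNA libraries, with horizontal lines at the group means. The groups overlap for 9 of 10 genes, with Tubg1 the exception; CPM is not scaled by length, so heights of different genes are not comparable.

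**Figure D2:**
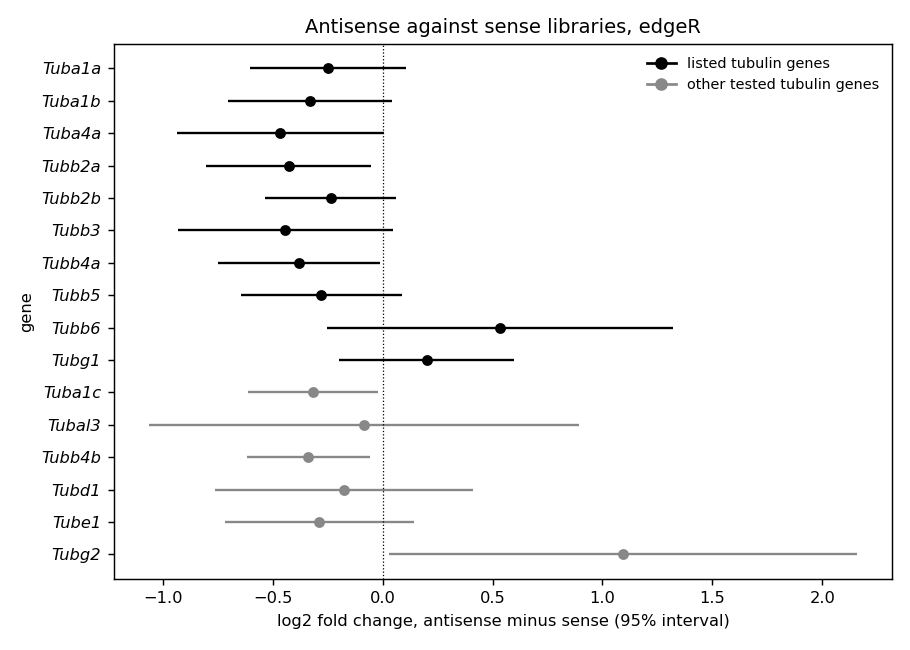
Log2 fold change, antisense minus sense, with its 95% interval from edgeR for the 10 listed tubulin genes (black) and the 6 other tubulin genes tested (grey). Points of 8 listed genes lie between -0.47 and -0.24 and those of Tubb6 and Tubg1 above 0; no gene passed after adjustment.

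The authors' deposited table, which gives sense over antisense, also listed none of the 10 with an adjusted p under 0.05. In the authors' deposited table the log2 fold change was positive for 8 and negative for 2 of the 10, and the adjusted p ranged from 0.235 (Tubb4a) to 0.791 (Tubg1). With its direction turned against the one used here, the authors' deposited table gave 0.25 for Tuba1a, 0.47 for Tuba4a, 0.45 for Tubb3 and -0.51 for Tubb6.

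For the 8 abundant genes the spread between libraries of a group was larger than the difference between group means. Within sense the highest library stood 1.42-fold (Tubb2b) to 2.08-fold (Tubb3) above the lowest, and within antisense 1.35-fold (Tuba1b) to 1.65-fold (Tubb3). The order was shared. In 9 of 10 genes sense replicate 1 was the highest and sense replicate 2 the lowest sense library, with Tubg1 the exception, and in 8 of 10 antisense replicate 3 was the lowest antisense library, with Tubb6 and Tubg1 the exceptions. Among 9761 protein-coding genes with a mean of at least 10 CPM, 25.8% had that sense order and 37.9% had antisense replicate 3 lowest. The ratio of sense replicate 1 to sense replicate 2 had a median of 1.03 over those genes, against 1.65 for Tuba1a, 1.70 for Tubb2a and 2.08 for Tubb3.

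The summed level of the 10 genes showed the same order. It was 773, 812 and 559 CPM in antisense replicates 1, 2 and 3 and 1101, 668 and 860.0 CPM in sense replicates 1, 2 and 3, so antisense replicates 1 and 2 lay above sense replicate 2. As a share of all counts, Gas5 included, the sum was 0.0668%, 0.0662% and 0.0661% in the sense libraries, whose Gas5 share was 57.1%, 32.7% and 46.1%. In antisense it was 0.101%, 0.1004% and 0.0723%. With Gas5 left out of the denominator the sense shares spread to 0.156%, 0.0983% and 0.123%, and the antisense shares were 0.112%, 0.117% and 0.0811%. The sense libraries were nearly equal on the first denominator and spread on the second.

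**Figure D3:**
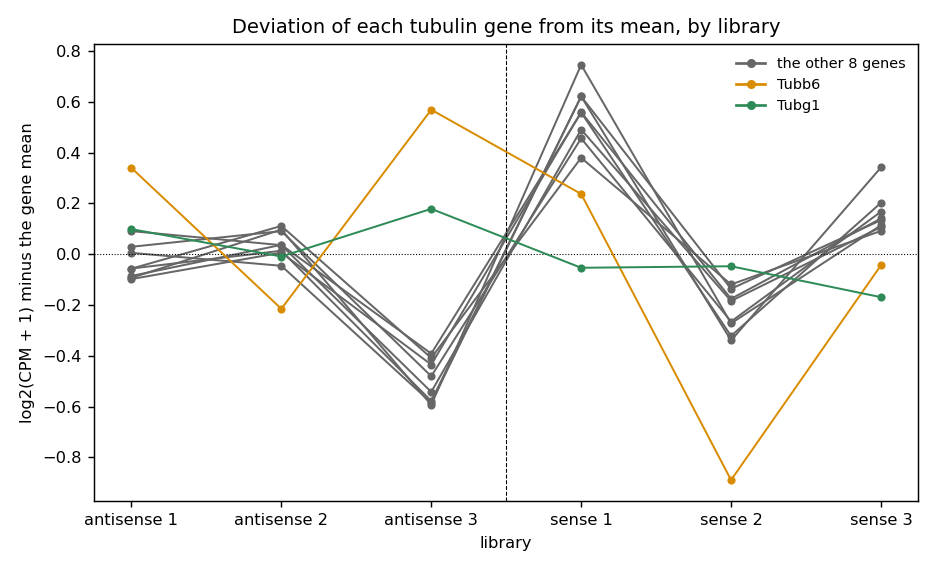
Log2(CPM + 1) of each tubulin gene minus its mean over the 6 libraries, by library, with Tubb6 in orange, Tubg1 in green and the other 8 genes in grey. The grey lines run together, lowest in antisense replicate 3 and highest in sense replicate 1, while Tubb6 and Tubg1 depart from them.

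The 8 genes tracked each other across libraries. The Pearson correlation of each gene with the mean of the other 9 members, over 6 libraries on log2(CPM + 1), was 0.92 (Tubb2b) to 0.98 (Tuba1b) for the 8, 0.05 for Tubb6 and -0.53 for Tubg1. These are descriptions: the libraries share their scaling factors, and near-identical genes may share reads. Of 3260 other genes with a mean of at least 50 CPM, 161 (4.94%) had an r of 0.9 or more with the mean tubulin profile, and the median r was 0.35. The 5 closest were Cd81 (r = 0.983), a membrane tetraspanin gene; Ppp2r1a (0.982), a scaffold subunit of protein phosphatase 2A; Pea15a (0.979), an astrocyte-enriched phosphoprotein gene; Mt3 (0.976), the brain metallothionein; and Scarb2 (0.972), a lysosomal membrane receptor gene. Mt3 stood at 59.0, 55.4 and 40.6 CPM in antisense and 86.0, 49.4 and 60.8 CPM in sense, with sense replicate 1 highest and antisense replicate 3 lowest, as for the summed tubulin genes.

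Leaving out single libraries moved the tubulin values in a fixed pattern. Without sense replicate 2, which had the lowest sense levels, 5 of the 10 genes passed as lower in antisense, where 5.24% of all genes did. They were Tuba1b (-0.54; edgeR adjusted p = 0.0134), Tuba4a (-0.71; 0.0129), Tubb2a (-0.59; 0.0229), Tubb3 (-0.66; 0.0386) and Tubb4a (-0.55; 0.0265). Without sense replicate 1, which had the highest levels, none passed and the median of the 10 was -0.11, and without antisense replicate 3 none passed and the median was -0.16. With no filter on low counts Tubb2a passed as lower (-0.43; edgeR adjusted p = 0.0417), where 2.83% of all genes did.

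The make-up of the tubulin pool can be read within a library, where the scaling cancels. Of the counts of the 3 listed alpha genes, Tuba1a took 77.6% ± 0.855 in antisense and 76.6% ± 1.24 in sense (SD, n = 3 each), with Tuba1b at 17.6% ± 1.07 and 18.0% ± 0.768. Tuba4a took 4.80% ± 0.263 and 5.43% ± 0.515. The groups overlapped for all 3. These shares count reads without correction for transcript length, so they are compared between libraries and not between genes.

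Among the counts of the 6 listed beta genes, Tubb2a was the 1 gene whose share did not overlap between groups. Its share was 31.8% (95% exact Clopper-Pearson interval 30.1% to 33.5%), 31.6% (30.01% to 33.3%) and 30.5% (28.6% to 32.6%) in antisense and 34.8% (33.2% to 36.4%), 33.1% (31.1% to 35.0%) and 33.0% (31.1% to 34.9%) in sense. The lowest sense and highest antisense libraries were 33.0% and 31.8%, within each other's counting intervals, and the group means differed by -2.28 percentage points. Separation of the groups was looked for in the shares of 9 alpha and beta genes, without a test. For 3 libraries against 3, the smallest two-sided exact permutation p is 0.1. Whether reads were tied to single molecules by identifiers is not stated. The counting intervals take each read as independent and cover counting error alone, so they may be too narrow. Tubb2b, from which Tubb2a reads may be hard to separate, had a higher mean share in antisense, at 32.8% ± 1.35 against 31.1% ± 2.02 in sense (SD, n = 3 each), with overlapping groups. Its share was lowest in sense replicate 1 (28.9%, interval 27.4% to 30.5%) and highest in antisense replicate 3 (33.8%, interval 31.8% to 35.9%), and those intervals do not meet. Tubb3 took 5.797% ± 0.373 and 6.21% ± 0.815, Tubb4a 7.58% ± 0.326 and 7.83% ± 0.191, and Tubb5 21.1% ± 1.35 and 20.5% ± 0.187. Tubb6 took 1.42% ± 0.715 and 0.707% ± 0.225, with overlapping groups. Its share varied most for its size, from 0.448% (interval 0.215% to 0.822%) in sense replicate 2 to 2.18% (1.60% to 2.91%) in antisense replicate 3. The ratio of summed alpha to summed beta counts was 0.998, 0.991 and 0.989 in antisense and 0.949, 0.897 and 1.02 in sense, and the sense values lay on both sides of the antisense values.

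**Figure D4:**
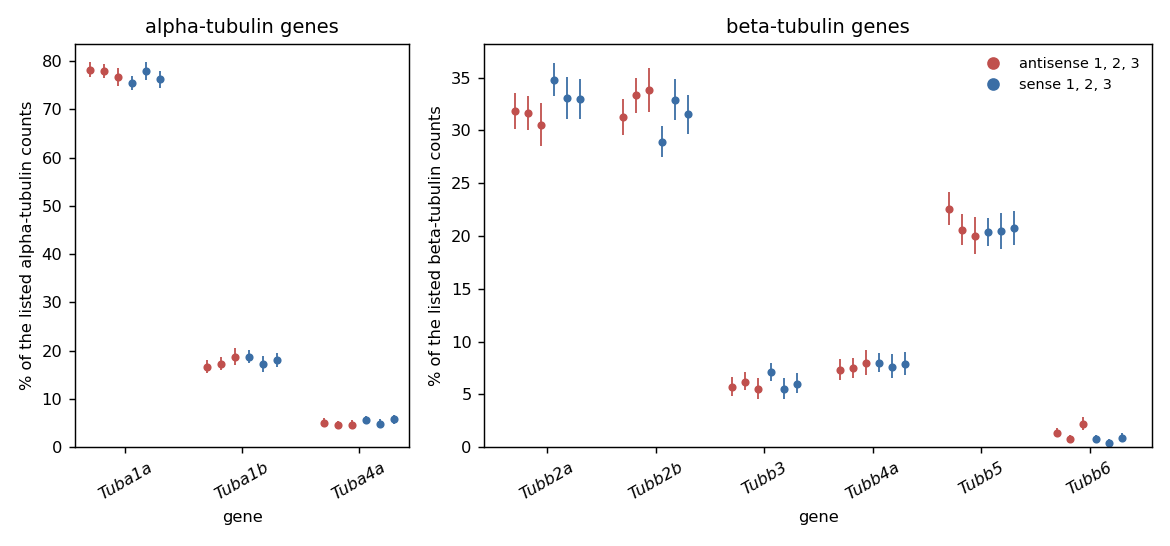
Share of each gene in the counts of the 3 listed alpha-tubulin genes (left) and of the 6 listed beta-tubulin genes (right), in percent, for antisense (red) and sense (blue) replicates 1, 2 and 3 from left to right, with exact 95% binomial intervals. The Tubb6 share runs from 0.448% to 2.18% and the Tubb2b share from 28.9% to 33.8%, and Tubb2a is the 1 gene with all antisense libraries below all sense libraries, at 30.5% to 31.8% against 33.0% to 34.8%. No test was run on the shares.

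The table holds 10 further tubulin genes, of which 6 were tested and none passed, with a median log2 fold change of -0.23. Tubb4b, a widely expressed beta-tubulin, stood at 115, 125 and 106 CPM in antisense and 177, 115 and 146 CPM in sense. Its log2 fold change was -0.34 (SE 0.131, edgeR adjusted p = 0.0819). Tubb4b passed as lower without sense replicate 2 (edgeR adjusted p = 0.00709) and with no filter on low counts (0.0484). In no other setting did it pass, and without sense replicate 1 it was -0.19 (edgeR adjusted p = 0.358). Tuba1c, the third gene of the alpha cluster on chromosome 15, was at 17.5, 18.1 and 17.8 CPM in antisense and 21.0, 19.8 and 25.9 CPM in sense. All of its antisense libraries lay below all sense libraries, as for 13.2% of all tested genes, and its log2 fold change was -0.32 (SE 0.137; edgeR adjusted p = 0.121). Tubg2, the second gamma-tubulin gene, was at 3.42, 1.41 and 2.14 CPM in antisense and 1.58, 0.312 and 1.37 CPM in sense, on 2 to 26 counts a library (log2 fold change 1.09, SE 0.498; edgeR adjusted p = 0.141).

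Delta- and epsilon-tubulin, which act at centrioles, did not pass either: the log2 fold change was -0.17 (SE 0.275) for Tubd1 and -0.29 (SE 0.201) for Tube1. Without sense replicate 2 that of Tube1 was -0.07, and without antisense replicate 2 it was -0.18. Tubal3 had a log2 fold change of -0.09 (SE 0.456). Tuba3a, Tuba3b, Tuba8 and the platelet beta-tubulin gene Tubb1 had too few counts to be tested. Tuba3b had 5, 1 and 9 counts in antisense and 0 in every sense library, and Tuba8 had 9, 8 and 10 counts in antisense and 4, 5 and 5 in sense.

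Genes whose products fold tubulin or start microtubules gave calls at shares to be read against the 18.2% higher and 4.35% lower of all tested genes. Of 22 genes for the chaperonin, prefoldin and tubulin cofactors, 21 were tested, 3 were higher, 0 lower and 18 did not pass (median log2 fold change -0.12, against -0.01 over all tested genes). The 3 were the prefoldin subunit gene Vbp1 (0.70, SE 0.145; edgeR adjusted p = 0.00177), the chaperonin subunit gene Cct6a (0.38, SE 0.0938; adjusted p = 0.00705) and the prefoldin subunit gene Pfdn4 (0.59, SE 0.199; adjusted p = 0.0443). Vbp1 passed whichever library was left out, Cct6a lost the call without sense replicate 1 (adjusted p = 0.0611), and Pfdn4 lost it without any 1 of the 6 (adjusted p = 0.053 to 0.139). Of 17 genes of the gamma-tubulin ring and augmin complexes, 16 were tested, 1 was higher and 1 lower (median 0.01). Haus8, an augmin subunit gene, was at 61.1, 73.5 and 68.6 CPM in antisense and 26.3, 38.3 and 26.6 CPM in sense, with no overlap (1.15, SE 0.138; edgeR adjusted p = 1.38e-05), and passed whichever library was left out. Its span on chromosome 8 (71250597 to 71272627) overlaps Myo9b, at a mean of 115 CPM, and overlap of exons was not examined. Counting by strand is not stated, so the Haus8 counts may include Myo9b reads, which was not tested. Mzt1, a small subunit of the gamma-tubulin ring whose span overlaps Bora at a mean of 28.9 CPM, was lower (-0.45, SE 0.149; edgeR adjusted p = 0.042), and lost the call without antisense replicate 1 (0.158) or 3 (0.0689) or sense replicate 1 (0.0871) or 3 (0.152). Tubgcp4, which binds gamma-tubulin in the ring, did not pass (0.23, SE 0.097; edgeR adjusted p = 0.105).

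Enzymes that modify the tubulin tail, and factors that cut or destabilise microtubules, are set against the same 18.2% higher and 4.35% lower. Of 22 modifying enzyme genes, all tested, 1 was higher and 1 lower (median -0.06). Agbl5, a carboxypeptidase that removes tail glutamates, was higher (0.51, SE 0.143; edgeR adjusted p = 0.0168), and lost the call without antisense replicate 3 (0.0696), sense replicate 1 (0.095) or sense replicate 2 (0.0551). Vash1, a carboxypeptidase that removes the C-terminal tyrosine of alpha-tubulin, was lower (-0.47, SE 0.147; edgeR adjusted p = 0.0321), and lost the call without antisense replicate 1 (0.118) or 2 (0.0712) or sense replicate 1 (0.127). Sirt2, a tubulin deacetylase, did not pass (-0.25, SE 0.0918; edgeR adjusted p = 0.0661). Of 10 severing and stathmin genes none passed (median -0.20), with Spast at -0.18 (SE 0.0992) and Stmn2 at -0.24 (SE 0.134). Of 11 genes for TTC5 and the Cnot deadenylase complex, which act in the decay of tubulin mRNA, none passed (median -0.06), with Cnot11 at 0.52 (SE 0.234; 0.23 without sense replicate 1), Cnot7 at -0.20 (SE 0.111) and Cnot1 at -0.16 (SE 0.0903). On library totals alone the log2 fold changes of Mzt1, Vash1, Sirt2, Spast, Stmn2, Cnot7 and Cnot1 were positive.

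Markers of neurons and of other cell types were set beside the tubulin genes, and their calls beside the 18.2% higher and 4.35% lower of all tested genes. The median log2 fold change was -0.34 for neuron, -0.25 for astrocyte, -0.21 for oligodendrocyte and -0.28 for vascular and fibroblast markers. It was -0.14 for cycling cell and 0.64 for microglia markers, against -0.30 for the 10 tubulin genes. The lower median of the tubulin genes was thus not particular to them. All 10 neuron markers were tested and none passed. Their summed level was 855.5 to 1105 CPM in antisense and 1091 to 1364 CPM in sense. The sums of neuron, astrocyte, oligodendrocyte, vascular and cycling cell markers were all lowest in antisense replicate 3 and highest in sense replicate 1, as the tubulin sum was, and that of microglia markers was not. Astrocyte markers were also abundant, at 1269 to 1568 and 1473 to 1921 CPM, and 2 of 10 were lower in antisense. Oligodendrocyte lineage markers summed to 456 to 501 and 487 to 640 CPM (0 of 11 passing). Vascular and fibroblast markers summed to 334 to 376 and 388 to 489 CPM (2 lower of 9 tested, with Cldn5 at 0 in every sense library). Microglia markers summed to 29.8 to 30.7 and 20.4 to 22.0 CPM (2 higher and 1 lower of 5 tested), and markers of cycling cells to 229.5 to 256 and 240.4 to 271 CPM (1 higher of 8). The part of these cell types in the tubulin levels was not tested. In pulldown RNA, fewer cells of a type, less RNA per cell and lower recovery in the pulldown cannot be told apart.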

How the data were processed

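Per the submitters' processing notes, Salmon, DESeq and the build GRCm38 were used, with no versions; aligner settings, transcript index and strand of counting: not given in the sources used here. The authors deposited estimated counts per gene symbol for the 6 total RNA libraries, which were rounded to whole numbers. The authors' deposited comparison table holds for each gene its mean signal over size-factor-scaled counts, the log2 fold change and SE, and raw and adjusted p-values, which were only set beside those computed here. Small RNA libraries were not used here.

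Genes were kept by filterByExpr (minimum count 10) and tested with edgeR 4.0.16 (R 4.3.3; glmQLFit and glmQLFTest, two-sided, TMM, no further term), Benjamini-Hochberg adjusted over all tested genes at 0.05. The standard error is the log2 fold change over the square root of F, and the 95% interval uses the test's degrees of freedom. DESeq2 1.42.0 was an alternative. The steps were tested on simulated counts. Those counts did not build in the Gas5 difference and had the same spread setting for all genes, so they do not bear on the scaling. Replicates of a group differed beyond sampling noise in every pair. Positions came from a RefSeq table of GRCm38.p6. No sample column was left unused.

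The tubulin genes and the lists were chosen with earlier results of these data known. Named genes are the 10 tubulin genes, Gas5, all further tubulin genes, up to 3 tested genes of smallest p per pathway list, and the 5 genes closest in profile. Stk16 was chosen after its values were seen. An item that the rule picks is not reported here by name and stays in the counts of its list.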

Additional observations from a re-analysis of the deposited data

How the results depend on the processing

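With RLE factors, Gas5 left out, TMM over protein-coding genes, DESeq2 or a minimum count of 50, no tubulin gene passed and each of the 10 tested kept its sign (Tubb6 was not tested at 50). Leaving out 1 library gave 0 tubulin genes higher, 0 to 5 lower, 3392 to 3987 genes higher and 492 to 1100 lower; the 5 came without sense replicate 2, and the lower genes numbered 571 (antisense replicate 1 left out), 534 (sense replicate 1) and 492 (sense replicate 3). Library totals alone gave 2 tubulin genes higher, and 12804 genes higher and 62 lower (99.5% higher, against 80.7%). A minimum count of 50 gave 1795 and 402 on fewer genes, and TMM over protein-coding genes 548 lower (87.6% higher; DESeq2 86.3%). With no filter 1 tubulin gene was lower. On library totals the signs turned for Tuba1a (0.51), Tuba1b (0.44), Tuba4a (0.31), Tubb2a (0.34), Tubb2b (0.51), Tubb3 (0.34), Tubb4a (0.38), Tubb5 (0.48), Tuba1c (0.40), Tubal3 (0.60), Tubb4b (0.42), Tubd1 (0.56), Tube1 (0.39), Mzt1 (0.27), Vash1 (0.26), Sirt2 (0.47), Spast (0.53), Stmn2 (0.47), Cnot7 (0.52), Cnot1 (0.55) and Stk16 (0.45). Tubal3 also turned without antisense replicate 2 (0.18) or sense replicate 2 (0.403), ranging from -0.405 over single libraries left out, and Tubd1 without sense replicate 3 (0.068), ranging from -0.367. Library totals include Gas5; the cause of the other changes was not tested. Whether replicate numbers pair the libraries is not stated. Deviations of same-numbered libraries from their group means correlated at 0.18, -0.25 and -0.04 over 11001 genes, which cannot decide it with 3 libraries a group. With the replicate number as a block 0 tubulin genes passed, and 3428 genes were higher and 695 lower. With all tubulin rows of a family as the denominator, differences in isotype share between antisense and sense moved by less than the SD of the libraries, while the shares themselves were lower (Tubb2a 23.6% in antisense, against 31.3%). Settings for the pathway genes and Stk16 were chosen after seeing the data. With 10 to 45 counts a library, Tubb6 has the widest interval of the 10.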
